A study of Mus musculus with 24 samples.

Results

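Lipoprotein lipase (LPL) breaks down the triglyceride of circulating lipoproteins at the wall of capillaries, and its transcript was followed here with those of its cofactors, its inhibitors, the lipases related to it and the fatty acid transporter CD36. The 9 genes, *Lpl*, *Gpihbp1*, *Lmf1*, *Angptl4*, *Angptl8*, *Apoc2*, *Lipc*, *Lipg* and *Cd36*, were taken by symbol from a table of 24532 genes, with earlier results of these data known. RNA-seq libraries came from C57BL/6 mice on chow at an age of 8 weeks, from liver, inguinal white adipose tissue (iWAT), gastrocnemius muscle (GM) and hypothalamus. The control mice (Ctrl) were *Crif1*flox/flox without Cre, and the LKO mice were Alb-Cre;*Crif1*flox/flox, in which Cre under the albumin promoter, active in hepatocytes, removes *Crif1*, a factor needed for the synthesis of mitochondrially encoded subunits of oxidative phosphorylation. Both genotypes carried the floxed alleles, and Ctrl mice lacked the Cre transgene, so that Cre alone and the deletion cannot be told apart. There were 3 libraries per genotype and tissue and 24 in all. The comparison asks how a defect of liver mitochondria is met by this lipase system in the liver and in tissues in which *Crif1* was not targeted.

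Triglyceride leaves the intestine in chylomicrons and the liver in very-low-density lipoproteins. LPL is made by adipocytes, myocytes and macrophages, is folded in the endoplasmic reticulum with the help of LMF1, and is carried across capillary endothelial cells by GPIHBP1, where it acts with APOC2 as its cofactor. ANGPTL4 and ANGPTL8 take part in the inhibition of LPL after fasting and feeding, respectively, and CD36 takes part in the uptake of the fatty acids released. Adult hepatocytes make little LPL and secrete hepatic lipase (*Lipc*) instead, whereas endothelial lipase (*Lipg*) acts mainly on the phospholipids of high-density lipoprotein.

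Depth, read from the ratio of FPKM to coverage, ran from 4.45 to 8.09 gigabases with a median of 5.19. *Gadd45gip1*, the symbol under which the table lists *Crif1*, was at 12.5 to 14.6 FPKM in Ctrl livers and, in those of LKO mice, at 2.0, 2.51 and 5.40 FPKM, with a difference of -1.84 in log2 terms (SE 0.27, adjusted p = 0.0036), and differed by -0.22 in iWAT, 0.02 in GM and -0.06 in hypothalamus, without passing the test there. The labelled tissues carried their markers: hepatocyte transcripts summed to 52887 to 78352 FPKM in liver, adipocyte transcripts to 42287 to 51886 FPKM in iWAT, myofibre transcripts to 83653 to 92465 FPKM in GM and neuronal transcripts to 1424 to 1530 FPKM in hypothalamus. Correlations of log2(FPKM + 1) across genes, which are not independent replicates, were at least 0.976 within groups and at most 0.775 between tissues.

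The promoter windows are shown for 3 members whose liver transcript passed the test given below and for which RefSeq sequence was at hand. They hold the 250 bases before an annotated start site, on the strand of the gene, in GRCm38.p6. Capitals mark the letters of the nuclear receptor core motif AGGTCA, or TGACCT where it lies on the other strand, and of the CCAAT box, or ATTGG on the other strand. The *Cd36* window is chr5:17835897-17836146 on the minus strand, and its start site lies inside the span annotated for the gene. The *Apoc2* window is chr7:19677942-19678191 on the minus strand. The *Lipc* window, the upstream one of the 2 matched for this gene, is chr9:70952222-70952471 on the minus strand.
Cd36: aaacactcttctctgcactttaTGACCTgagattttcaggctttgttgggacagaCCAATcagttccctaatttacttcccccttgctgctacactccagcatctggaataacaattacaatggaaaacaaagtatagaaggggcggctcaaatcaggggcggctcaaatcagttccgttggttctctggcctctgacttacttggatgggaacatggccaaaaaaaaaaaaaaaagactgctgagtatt
Apoc2: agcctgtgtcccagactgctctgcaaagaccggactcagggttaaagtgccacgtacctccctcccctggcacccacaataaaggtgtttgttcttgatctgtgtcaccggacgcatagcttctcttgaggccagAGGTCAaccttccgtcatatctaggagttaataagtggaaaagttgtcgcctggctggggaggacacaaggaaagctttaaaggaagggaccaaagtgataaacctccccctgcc
Lipc: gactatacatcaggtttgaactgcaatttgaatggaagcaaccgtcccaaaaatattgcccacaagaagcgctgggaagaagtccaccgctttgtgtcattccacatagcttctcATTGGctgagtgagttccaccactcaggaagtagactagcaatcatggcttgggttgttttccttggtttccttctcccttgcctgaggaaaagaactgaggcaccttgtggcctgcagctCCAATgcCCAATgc

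Counted from the start site, the AGGTCA letters lay at -228 to -223 on the reverse strand in *Cd36* and at -115 to -110 on the gene's strand in *Apoc2*, and these 6 letters occur on either strand in 14% of the 32851 windows of the same length. The *Lipc* window shown held 3 CCAAT boxes, at -135 to -131 on the reverse strand and at -14 to -10 and -7 to -3 on the gene's strand, and the *Cd36* window held 1 at -195 to -191, against 33.8% of all windows with at least 1. The other *Lipc* window (chr9:70934809-70935058, minus strand) held the AGGTCA letters at -88 to -83 on the gene's strand and at -76 to -71 on the reverse strand, and a CCAAT box at -177 to -173 on the reverse strand. The direct repeat of that motif with 1 base between the copies, the arrangement that PPAR with RXR is known to bind, occurred in 0.0335% of windows and in none of these windows. The window of *Angptl8* held TGATGCAA, the composite motif of C/EBP and ATF factors, at -130 to -123 (0.791% of windows), and that of *Lmf1* held none of the motifs searched, which also included TATAAA (12.4% of windows). These matches describe letters and not bound sites.

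In Ctrl mice *Lpl*, *Gpihbp1* and *Cd36* were highest in iWAT and next in GM, and most of the other members were highest in liver. *Lpl* was at 2009 ± 336 FPKM in iWAT, 176 ± 18.8 in GM, 8.97 ± 4.24 in liver and 1.39 ± 0.54 in hypothalamus (mean ± SD, n = 3). *Gpihbp1* followed the same order, with 98.8 ± 15.4 FPKM in iWAT, 29.97 ± 3.32 in GM and 17.4 ± 2.1 in liver, and was listed at 0 in all 3 Ctrl libraries of the hypothalamus, where brain capillaries are known to lack the protein. *Cd36* had 855 FPKM in iWAT, 88.1 in GM, 5.80 in liver and 1.22 in hypothalamus. Transcripts of secreted liver proteins were highest in liver: *Apoc2* was at 195 FPKM in liver and 2.17 in iWAT, and *Lipc* at 83.8 FPKM in liver and at most 0.302 in any library of another tissue. *Lmf1* was at 20.9 FPKM in liver, 16.0 in iWAT, 11.7 in hypothalamus and 6.02 in GM.

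*Angptl4* was highest in iWAT (310 FPKM), followed by liver (78.4), GM (4.08) and hypothalamus (3.09). *Angptl8* was at 25.8 FPKM in liver and 14.3 in iWAT (adjusted p = 0.045 by limma), and was under 1 FPKM elsewhere. *Lipg* was low throughout, at 1.85 FPKM in liver, 0.492 in iWAT, 0.304 in hypothalamus and 0.017 in GM. Over the 9 members and 6 pairs of tissues, 48 of 54 differences between Ctrl tissues had an adjusted p under 0.05, against, of all 15849 genes, 77.9% for liver and iWAT, 68.7% for liver and GM, 85.9% for liver and hypothalamus, 74.6% for iWAT and GM, 78.8% for iWAT and hypothalamus and 83.5% for GM and hypothalamus. The neighbours that did not differ were GM and hypothalamus for *Angptl4*, *Angptl8*, *Apoc2* and *Lipc*, and iWAT and hypothalamus for *Lipg* and *Lipc*.

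**Figure D1:**
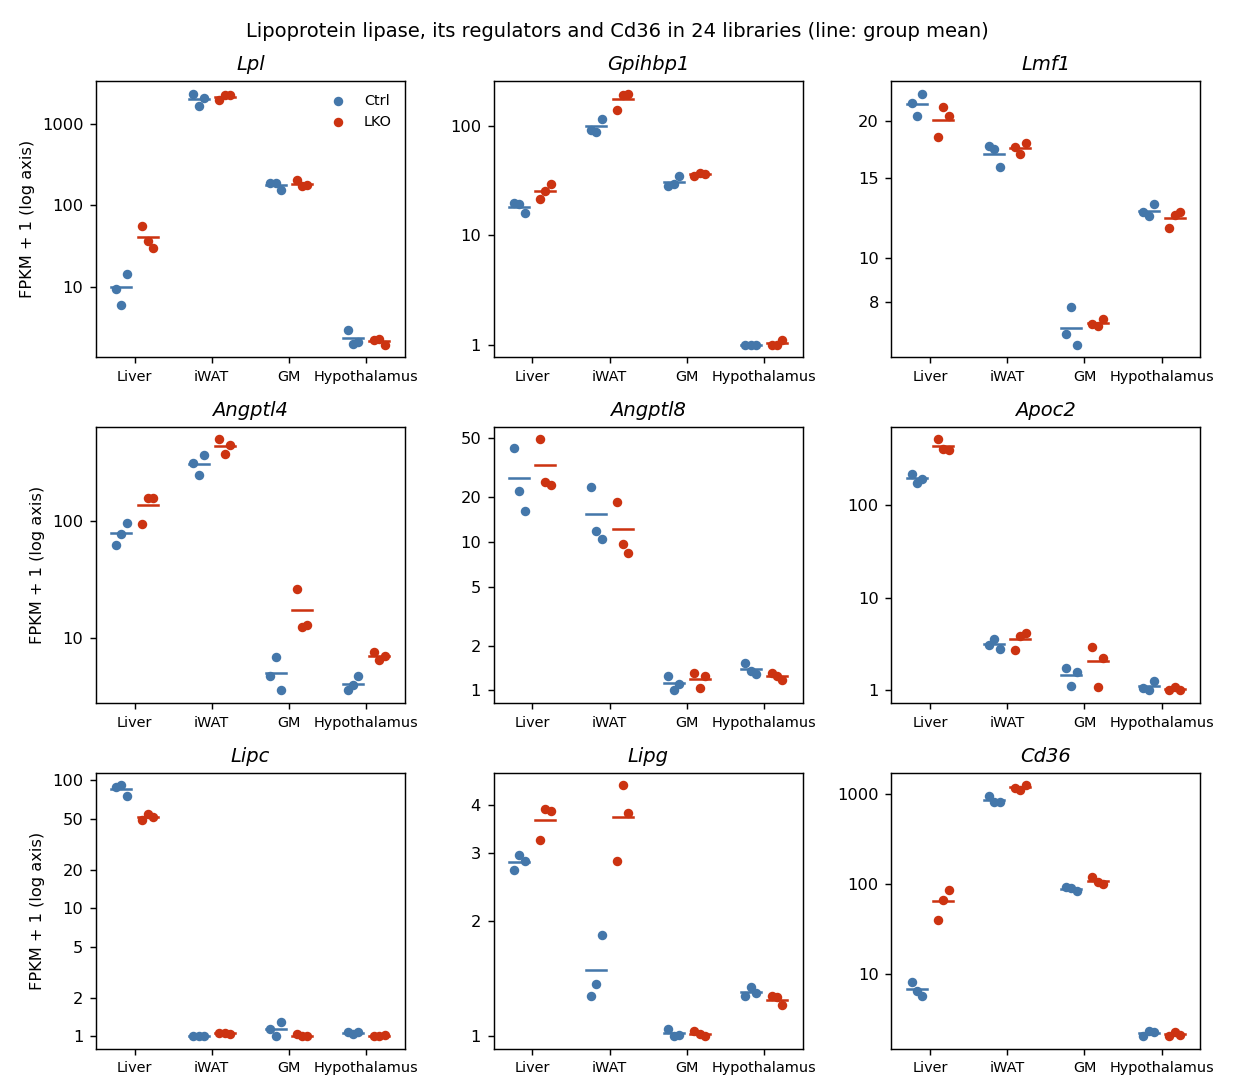
FPKM + 1 on a log axis for the 9 genes in liver, iWAT, GM and hypothalamus, 1 point per library (Ctrl blue, LKO red) and a line at the group mean. The LKO livers stand above the Ctrl livers for *Lpl* (29.2 to 55.5 against 5.08 to 13.5 FPKM), *Apoc2* and *Cd36* and below them for *Lipc*, while *Lpl* in iWAT, GM and hypothalamus overlaps between genotypes.

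The libraries were ordered alike by *Lpl*, *Cd36* and other transcripts of adipose tissue. Over the 24 libraries, the genes with the highest Pearson correlation to *Lpl* among 14121 compared were *Fabp4* (0.9897), *Dcn* (0.9870) and *Cd36* (0.9862), to *Gpihbp1* they were *Acadl* (0.9914), *Eci1* (0.9892) and *Cd300lg* (0.9861), and to *Cd36* they were *Dcn* (0.9899), *Mknk2* (0.9885) and *Lpl* (0.9862). These values rest on the 4 tissues, which the libraries of a tissue share, and are given as a description. *Gpihbp1* itself was at place 118 of the list for *Lpl*, with 0.9274.

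In LKO livers the lipase system changed in several parts at once. *Cd36*, *Lpl*, *Apoc2* and *Angptl4* were higher and *Lipc* was lower than in Ctrl livers by the adjusted criterion, a fold change of at least 1.5 on the log2(FPKM + 1) scale with a limma p under 0.05 after Benjamini-Hochberg adjustment over the 10956 genes tested. This makes 4 members higher and 1 lower of 9, in a tissue in which 23.9% of tested genes were higher and 3.5% lower by the same criterion (27.4% in all). The same 5 passed the unadjusted criterion, the same fold with an unadjusted p under 0.05, as did 28.9% of all genes (25.2% higher, 3.75% lower), and 7 members had an adjusted p under 0.05 at any fold, as did 43.8% of all genes. The groups did not overlap for 5 members that were higher and 1 that was lower, against 53% and 8.1% of all genes tested (61.1% in all). The median log2 fold change over all tested genes was 0.33 on the deposited FPKM and -0.05 after median-ratio scaling between libraries. Whether this shift came from the RNA of the livers or from the scaling was not tested. Values on that second scale are given below where they differ.

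*Lpl* was at 8.35, 5.08 and 13.5 FPKM in the 3 Ctrl livers, and at 55.5, 35.9 and 29.2 FPKM in the 3 of LKO mice. Every LKO liver was above every Ctrl liver, and all 6 stayed far under the level of muscle and fat. The log2 fold change was 2.09 (SE 0.34, 95% confidence interval 1.28 to 2.89, adjusted p = 0.0051). On the median-ratio scale it was 1.67 (adjusted p = 0.024). Its maturation factor *Lmf1*, which also serves the other lipases, was at 21.0, 19.6 and 22.0 FPKM in Ctrl and 17.4, 20.5 and 19.6 FPKM in LKO livers. These groups overlapped (log2 fold change -0.12, adjusted p = 0.37), although after median-ratio scaling the difference was -0.54 (adjusted p = 0.0093) and still under the limit of 1.5-fold.

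*Apoc2*, the cofactor that LPL needs, was at 217, 175 and 194 FPKM in Ctrl livers and at 515, 401 and 393 FPKM in LKO livers. The groups were well apart, with a log2 fold change of 1.15 (SE 0.15, interval 0.81 to 1.5, adjusted p = 0.0023), and of 0.71 on the median-ratio scale (adjusted p = 0.044). The span of *Apoc2* (chr7:19671579-19677941) lies wholly within that of the readthrough transcript *Apoc4-apoc2* on the same strand, which was listed at 9.96 to 19.0 FPKM in Ctrl and 10.7 to 15.7 FPKM in LKO livers, so that the division of reads between them is uncertain. *Lipc*, hepatic lipase, moved the other way, from 87.3, 90.0 and 74.1 FPKM in Ctrl to 47.7, 53.5 and 50.8 FPKM in LKO livers. No LKO liver reached the lowest Ctrl liver (log2 fold change -0.71, SE 0.11, interval -0.98 to -0.45, adjusted p = 0.0046), and the difference was -1.15 after median-ratio scaling.

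*Cd36* showed the largest difference of the 9. It was at 7.10, 5.54 and 4.77 FPKM in Ctrl livers and at 39.4, 66.1 and 84.3 FPKM in LKO livers, so that the highest LKO liver lay within the range of Ctrl muscle, 82.4 to 91.4 FPKM. The log2 fold change was 3.19 (SE 0.27, interval 2.55 to 3.83, adjusted p = 7.4e-04), and 2.78 after median-ratio scaling. *Lpl* and *Cd36* did not rank the 3 LKO livers alike: the LKO liver with the highest *Lpl*, replicate 1, had the lowest *Cd36*, the lowest *Angptl4* and, at 5.40 FPKM, the highest *Gadd45gip1*.

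*Angptl4*, the inhibitor of LPL induced by fasting and by PPAR agonists, was at 61.6, 77.5 and 96.2 FPKM in Ctrl livers and at 94.7, 156 and 158 FPKM in LKO livers. The lowest LKO liver lay just under the highest Ctrl liver, so the groups overlapped. The log2 fold change was 0.78 (SE 0.24, adjusted p = 0.037), but it was 0.34 after median-ratio scaling (adjusted p = 0.24) and missed the threshold without any of the 3 Ctrl livers or without LKO replicate 2 or 3 (adjusted p from 0.053 to 0.12). *Angptl8*, the inhibitor made after feeding, was at 41.5, 21.0 and 15.04 FPKM in Ctrl and 48.0, 24.4 and 23.0 FPKM in LKO livers. These groups overlapped (log2 fold change 0.33, interval -0.61 to 1.27, adjusted p = 0.50), and the sign turned after median-ratio scaling (-0.09). *Angptl8* lies wholly within the span of *Dock6* on the opposite strand, and as the kit does not mark strand their reads cannot be told apart where they overlap.

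*Gpihbp1* and *Lipg*, both transcripts of endothelial cells, were above every Ctrl liver in every LKO liver, with a fitted difference under 1.5-fold. *Gpihbp1* was at 18.7, 18.5 and 14.97 FPKM in Ctrl and 20.7, 24.7 and 28.7 FPKM in LKO livers (log2 difference 0.48, adjusted p = 0.040). *Lipg* was at 1.71, 1.98 and 1.86 FPKM in Ctrl and 2.25, 2.91 and 2.87 FPKM in LKO livers (log2 difference 0.36, adjusted p = 0.042). On the median-ratio scale both differences were close to 0, at 0.05 and 0.06, and *Lipg* was at -0.06 after quantile normalization.

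**Figure D2:**
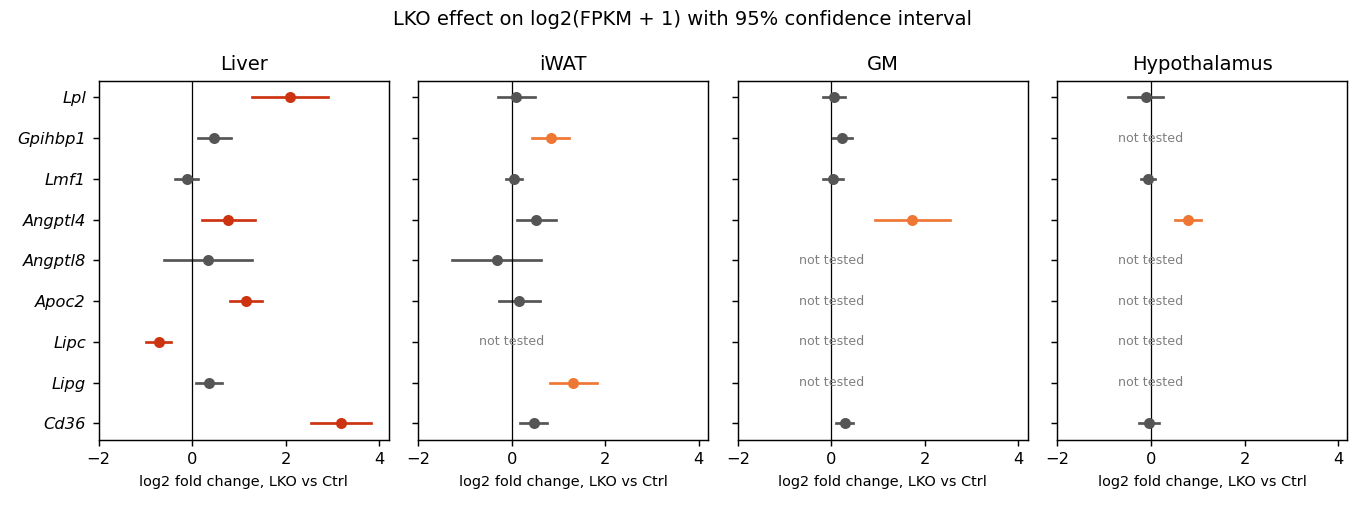
Log2 fold change of LKO against Ctrl on the log2(FPKM + 1) scale with its 95% confidence interval from limma, for the 9 genes in each tissue. Red marks the adjusted criterion, orange the unadjusted criterion and grey neither, and genes that reached 1 FPKM in fewer than 3 libraries of a tissue are marked as not tested. Red occurs in the liver alone, with *Cd36* at 3.19, *Lpl* at 2.09 and *Lipc* at -0.71.

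Markers of other cells moved in the same livers. Of 10 macrophage transcripts 9 were tested and all 9 were higher in LKO livers by the adjusted criterion (median log2 fold change 1.28, and 0.86 after median-ratio scaling), with *Cd68* at 4.03 to 4.77 FPKM in Ctrl and 11.1 to 28.7 FPKM in LKO livers and *Adgre1* at 3.76 to 4.38 and 11.0 to 15.9 FPKM. The summed macrophage level was 140 to 155 FPKM in Ctrl and 326 to 471 FPKM in LKO livers, and macrophages are known to express *Lpl* and *Cd36*. In bulk tissue more cells of a type and more RNA per cell cannot be told apart, and the part of macrophages in the higher *Lpl*, *Cd36* and *Apoc2* was not tested. The 8 adipocyte transcripts summed to 18.5 to 21.0 FPKM in Ctrl and 38.7 to 42.5 FPKM in LKO livers, of which *Cidec* (log2 fold change 2.58) and *Fabp4* (0.84) rose, *Fabp4* not after median-ratio scaling. The defining adipocyte markers were near 0 in LKO livers, with *Adipoq* at 0.158 to 0.278 FPKM, *Plin1* at 0 to 0.0969 FPKM and *Lep* listed at 0.

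Of the 10 endothelial transcripts, 4 were higher in LKO livers (*Pecam1*, *Cdh5*, *Esam* and *Egfl7*, log2 fold changes 0.81 to 0.63) and none after median-ratio scaling. Of the hepatocyte list 1 of 10 was higher (*Ahsg*), whereas after median-ratio scaling none was higher and 1 was lower (*F2*), with a median of -0.57 against -0.05 over all genes. Of the mammary epithelium list *Krt8* and *Krt18*, which hepatocytes and bile ducts also express, were higher on both scales, and *Epcam* was higher but kept by the filter through its LKO livers alone. Of the beige adipocyte list 1 of 2 tested was lower (*Elovl3*). The neuron list had 1 tested gene, which was lower, and no blood or myofibre gene passed the adjusted criterion in liver. *Alas2*, a gene of haem synthesis in red cells, passed the unadjusted criterion, lower, and the adjusted one after median-ratio scaling, and 1 blood and 1 myofibre gene were higher with deposited TPM. No lymph node gene was tested in liver, iWAT or hypothalamus, and the 1 tested in GM did not pass.

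PPAR target genes, which include *Angptl4* and *Cd36* in many cell types but were counted here without the members, were often higher in LKO livers. Of the 20 on the list 18 were tested, 10 were higher and none was lower by the adjusted criterion, and their median log2 fold change was 0.77 against 0.33 over all genes. After median-ratio scaling 8 were higher and 2 lower, with a median of 0.34 against -0.05. *Pdk4*, which turns off pyruvate oxidation, went from 3.01 ± 1.19 to 97.7 ± 75.9 FPKM (4.2 on the log2 scale, adjusted p = 0.0055), *Acot2*, a mitochondrial thioesterase, from 3.43 ± 1.02 to 58.5 ± 40.8 FPKM, *Cyp4a14*, a fatty acid hydroxylase, from 62.1 ± 28.3 to 367 ± 68.3 FPKM, and *Hilpda*, an inhibitor of intracellular triglyceride lipase, from 1.49 ± 0.02 to 8.29 ± 3.99 FPKM (mean ± SD, n = 3).

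The transcription factors known to act on the members had 2 of 17 genes higher and none lower in LKO livers, with a median of 0.12 (-0.29 after median-ratio scaling, against -0.05 over all genes). These were *Pparg*, the adipogenic PPAR that also acts in fatty liver and in macrophages, at 3.26 ± 1.37 FPKM in Ctrl and 11.4 ± 3.53 FPKM in LKO livers (log2 difference 1.56, adjusted p = 0.0081), and *Ppargc1a*, a coactivator that drives mitochondrial biogenesis (0.71, adjusted p = 0.0034, or 0.41 on the median-ratio scale). After median-ratio scaling 1 of the list was higher, *Pparg*, and 1 was lower. *Ppara*, the main PPAR of hepatocytes, was at 23.6 ± 2.0 and 25.3 ± 3.1 FPKM.

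**Figure D3:**
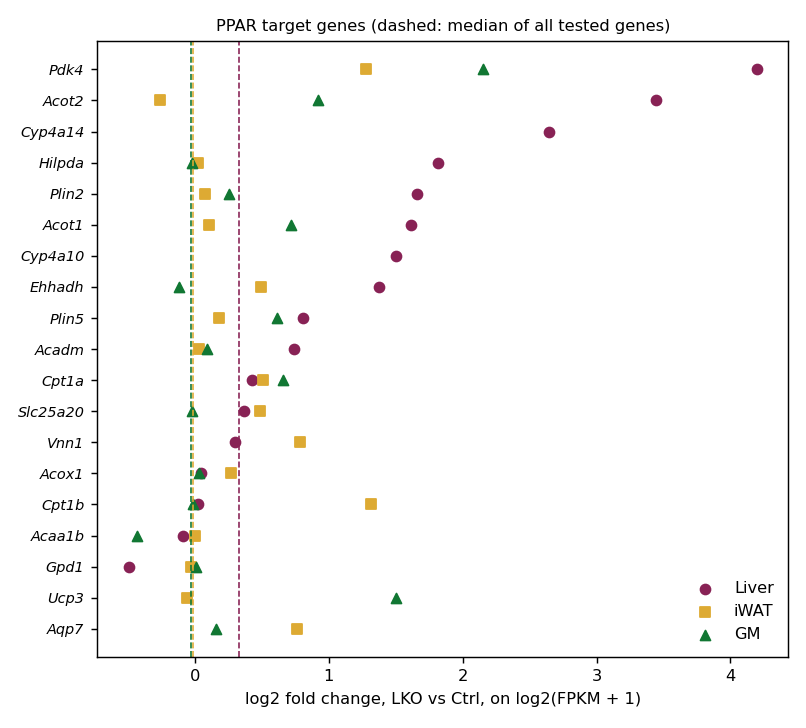
Log2 fold change of LKO against Ctrl for PPAR target genes in liver (circles), iWAT (squares) and GM (triangles), with the median of all tested genes of each tissue as a dashed line. *Pdk4* is to the right in all 3 tissues (4.2, 1.28 and 2.15), whereas *Cyp4a14* is plotted in liver alone because it was not tested elsewhere.

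Among the other regulators of LPL, 3 of 14 tested were higher and 1 lower in LKO livers, with a median of 0.14 (-0.29 after median-ratio scaling), below that of all genes on both scales. *Pltp*, phospholipid transfer protein (0.77), and *Hspg2*, the heparan sulfate proteoglycan perlecan (0.70), were among those higher, and *Sdc4*, a cell-surface proteoglycan, was lower at -0.77. After median-ratio scaling none was higher and *Sdc4* and *Apoc1* were lower. The LPL inhibitor *Apoc3* was at 2199 ± 96.9 and 1858 ± 273 FPKM and the activator *Apoa5* at 367 ± 69.9 and 342 ± 55.1 FPKM, and neither passed.

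The fatty acid uptake list had 5 of 15 tested genes higher and 2 lower in LKO livers, with a median of 0.19 (-0.24 after median-ratio scaling). *Acsl4*, which activates arachidonic acid, was higher (log2 fold change 1.79), as were the fatty acid binding proteins *Fabp7* (0.92) and *Fabp4* (0.84). *Slc27a5*, the liver transporter that also conjugates bile acids, was lower, at 415 ± 14.2 FPKM in Ctrl and 200 ± 46.8 FPKM in LKO livers (-1.08, adjusted p = 0.0050), and so was *Acsl1* (-0.77). After median-ratio scaling 1 was higher, *Acsl4*, and 3 were lower. Of the lipoprotein receptors 1 of 7 passed, *Vldlr*, which binds triglyceride-rich particles, from 0.467 ± 0.304 to 2.83 ± 1.37 FPKM (1.35, adjusted p = 0.0088), a gene kept by the filter through its LKO livers alone, since all Ctrl livers were under 1 FPKM. After median-ratio scaling *Vldlr* stayed higher, and *Scarb1* and *Lrp1* were lower. Of the lipase and angiopoietin-like relatives 3 of 4 tested were higher, *Angptl6* (0.94), *Angptl2* (0.87) and lysosomal acid lipase *Lipa* (0.64), whereas after median-ratio scaling none was higher and 1 was lower.

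In iWAT no member passed the adjusted criterion, and neither did any of the 12288 genes tested (0%). *Lipg* was tested only because its 3 LKO libraries reached the 1 FPKM of the filter on low values, which no Ctrl library did, and it is left out of the counts that follow. Of the other 7 tested members *Gpihbp1* passed the unadjusted criterion, higher, as did 3.25% of all genes (1.95% higher, 1.29% lower). An unadjusted p under 0.05 without regard to fold was found for *Gpihbp1*, *Cd36* and *Angptl4*, against 15% of all genes, and the groups of these 3 did not overlap, against 20.8% of all genes tested (9.76% higher, 11% lower).

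*Lpl* itself was at 2332, 1661 and 2035 FPKM in Ctrl and 1965, 2219 and 2211 FPKM in LKO iWAT. The groups overlapped, and the log2 fold change was 0.10 with an interval of -0.30 to 0.49. *Lmf1* was at 16.7, 16.4 and 14.9 FPKM against 16.6, 16.0 and 16.9 FPKM (0.04, interval -0.13 to 0.22). *Apoc2* was at 1.82 to 2.60 FPKM in Ctrl and 1.75 to 3.13 FPKM in LKO iWAT and *Angptl8* at 9.44 to 22.5 and 7.37 to 17.5 FPKM, both with overlapping groups.

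*Lipg* was at 0.274, 0.366 and 0.836 FPKM in Ctrl and 1.87, 3.52 and 2.81 FPKM in LKO iWAT. All LKO libraries were above all Ctrl libraries, at a mean coverage of 1.91 to 3.87 reads per base in Ctrl and 13.8 to 16.8 in LKO (log2 fold change 1.32, SE 0.21). With no filter on low values it also passed the unadjusted criterion (adjusted p = 0.15 by limma). *Gpihbp1* was at 91.5, 88.3 and 116 FPKM in Ctrl and 141, 191 and 198 FPKM in LKO iWAT. The groups did not overlap (0.83, SE 0.17, unadjusted p = 0.0019, adjusted p = 0.12 by limma). In 1 fit of all 24 libraries, which shares 1 estimate of the spread and kept *Lipg* through its liver libraries as well, both passed the adjusted criterion (adjusted p = 8.0e-06 and 0.0011).

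*Cd36* was at 951, 807 and 805 FPKM in Ctrl and 1175, 1116 and 1250 FPKM in LKO iWAT (log2 fold change 0.47, unadjusted p = 0.0063, adjusted p = 0.16 by limma), under the limit of 1.5-fold. *Angptl4* was at 312, 250 and 369 FPKM in Ctrl and 502, 379 and 454 FPKM in LKO iWAT (0.53, adjusted p = 0.24), also under it. Neither therefore passed either criterion, although no LKO library lay under a Ctrl library.

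Endothelial markers moved with *Gpihbp1*, *Lipg* and *Cd36* in iWAT. The 10 markers summed to 285 to 306 FPKM in Ctrl and 408 to 507 FPKM in LKO iWAT, and 4 of them (*Flt1*, *Cldn5*, *Kdr* and *Cdh5*, log2 fold changes 0.99 to 0.77) passed the unadjusted criterion, none being at 0. When the mean log2(FPKM + 1) of the markers was subtracted in each library, *Gpihbp1* was at 1.74 to 2.08 in Ctrl and 2.02 to 2.40 in LKO, with overlapping groups. *Cd36* was then at 4.86 to 5.25 in Ctrl and 4.83 to 5.07 in LKO, again overlapping. *Lipg* kept a gap, at -4.30 to -3.92 in Ctrl and -3.61 to -3.01 in LKO. In liver the same subtraction left *Gpihbp1* overlapping (1.51 to 1.83 and 1.65 to 1.73), *Lipg* overlapping (-1.19 to -0.89 and -1.29 to -1.01) and *Cd36* apart (0.04 to 0.39 and 2.63 to 3.17). In GM it left *Cd36* apart (2.536 to 2.863 in Ctrl and 2.889 to 3.035 in LKO) and *Gpihbp1* overlapping (1.139 to 1.271 and 1.218 to 1.529). *Lipg*, too low in GM to be tested, overlapped there. These subtracted values are descriptions, and the part of endothelial cells in the differences was not tested.

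**Figure D4:**
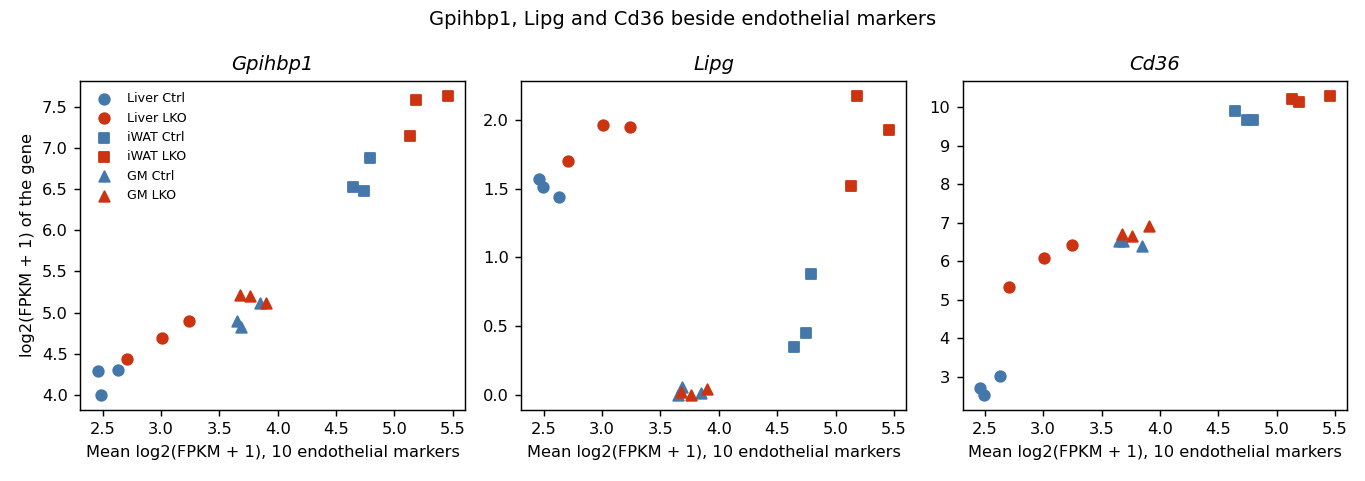
Log2(FPKM + 1) of *Gpihbp1*, *Lipg* and *Cd36* against the mean log2(FPKM + 1) of 10 endothelial markers in liver (circles), iWAT (squares) and GM (triangles), 1 point per library, Ctrl blue and LKO red. In iWAT the LKO libraries lie to the right of the Ctrl libraries on the marker axis (5.13 to 5.46 against 4.65 to 4.79), and in liver *Cd36* lies far higher in LKO libraries over a marker mean of 2.71 to 3.24 against 2.46 to 2.63.

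Other markers in iWAT differed between libraries as well. Blood transcripts summed to 477 to 1308 FPKM in Ctrl and 853 to 1751 FPKM in LKO iWAT, with 3 of 4 tested past the unadjusted criterion, and beige adipocyte transcripts to 171 to 555 and 494 to 833 FPKM, with *Cox8b* past it, and also *Elovl3*, which was kept by the filter through its LKO libraries alone. Hepatocyte transcripts summed to 13.7 to 24.4 FPKM in Ctrl and 36.0 to 56.3 FPKM in LKO iWAT, mostly *Alb*. *Alb*, the only gene of this list tested, passed the unadjusted criterion, higher (log2 fold change 1.39). Of the adipocyte list *Lep* alone passed, lower in LKO iWAT. Macrophage sums overlapped (1075 to 2616 and 1055 to 1365 FPKM, 1 of 10 genes past the unadjusted criterion and lower), as did myofibre sums (53.6 to 494 and 32.8 to 770 FPKM), and mammary epithelium sums were 0.0415 to 0.496 and 0.230 to 10.8 FPKM. *Lipc*, too low to be tested, was listed at 0 in the 3 Ctrl libraries and at 0.0694, 0.0526 and 0.0402 FPKM in the 3 LKO libraries. The part of these cells in the members' values was not tested.

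The PPAR target list had 3 of 18 tested genes past the unadjusted criterion in iWAT, all higher (median log2 fold change 0.22 against -0.01 over all genes), among them *Pdk4* (1.28, from 64.3 ± 8.8 to 159 ± 34.5 FPKM) and the glycerol channel *Aqp7* (0.76). *Pparg*, which drives *Lpl* and *Cd36* in adipocytes, went the other way, from 146 ± 16.4 to 94.2 ± 13.7 FPKM (-0.63, unadjusted p = 0.0028, adjusted p = 0.13 by limma), and *Ppara* was at 4.42 ± 1.21 and 7.12 ± 0.98 FPKM (0.60), so that 1 of 14 transcription factors passed in each direction. Of the fatty acid uptake list *Slc27a1* (0.75) and *Acsl3* (-0.74) passed out of 12, of the other regulators *Apoc3* (0.69) out of 14, and of the relatives *Pla1a* (-0.60) out of 5.

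In GM *Angptl4* was the only member past the unadjusted criterion, which 0.901% of 10877 tested genes passed (0.579% higher, 0.322% lower), and no gene passed the adjusted criterion (0%). *Angptl4* was at 3.76, 5.91 and 2.57 FPKM in Ctrl and 25.4, 11.5 and 12.03 FPKM in LKO muscle. Every LKO library was well above every Ctrl library (log2 fold change 1.73, SE 0.34, interval 0.94 to 2.53, unadjusted p = 0.0013, adjusted p = 0.38 by limma). Without LKO replicate 1, the highest library, the log2 fold change was 1.38. In 1 fit of all 24 libraries the adjusted p was 0.0082.

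*Lpl* was at 189, 185 and 154 FPKM in Ctrl and 201, 170 and 178 FPKM in LKO muscle, with overlapping groups (log2 fold change 0.06, interval -0.17 to 0.29). *Cd36* was at 91.4, 90.4 and 82.4 FPKM in Ctrl and 119, 104 and 99.6 FPKM in LKO muscle, without overlap (0.28, unadjusted p = 0.010, adjusted p = 0.56 by limma). *Gpihbp1* was at 27.3, 28.9 and 33.7 FPKM in Ctrl and 33.8, 36.0 and 35.8 FPKM in LKO muscle, with less than 0.1 FPKM between the groups (0.23, adjusted p = 0.68). In all, 3 members did not overlap in GM, each higher, against 11.6% of all genes (4.38% higher, 7.2% lower). *Lmf1* was at 5.44 to 6.79 and 6.08 to 6.33 FPKM and did not pass.

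*Angptl8*, *Apoc2*, *Lipc* and *Lipg* were too low in GM to be tested, with at most 0.319, 1.94, 0.302 and 0.0421 FPKM in any library. Endothelial markers in GM summed to 129 to 151 FPKM in Ctrl and 132 to 158 FPKM in LKO and none passed, and macrophage sums were 48.4 to 78.2 and 57.4 to 118 FPKM. Adipocyte transcripts varied from 305 to 890 FPKM in Ctrl and from 320 to 1047 FPKM in LKO libraries. LKO replicate 1, the library with the highest *Angptl4* and *Cd36*, also had the highest adipocyte (1047 FPKM), macrophage (118 FPKM) and lymph node (22.8 FPKM) sums, the last at 0.272 to 5.41 FPKM in the other libraries. Blood transcripts summed to 68.0 to 199 FPKM in Ctrl and 125 to 215 FPKM in LKO muscle, and *Hba-a2*, 1 of 2 haemoglobin genes of near-identical sequence, passed the unadjusted criterion, higher (4.35, unadjusted p = 0.027 by limma). Hepatocyte sums were 22.2 to 274 and 14.5 to 104 FPKM, with a median log2 fold change of -0.98 and no gene past it. No gene of another marker list passed in GM. The part of these cells in the members' values was not tested. *Apoc2* ranged from 0.115 to 0.765 FPKM in Ctrl and 0.0966 to 1.94 FPKM in LKO, highest in the same library.

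PPAR target genes were the list with most genes past the unadjusted criterion in GM, 6 of 17 tested, all higher, with a median log2 fold change of 0.09 against -0.03 over all genes. *Pdk4* was at 133 ± 65.1 and 553 ± 172 FPKM (2.15), the mitochondrial carrier *Ucp3* at 39.3 ± 14.6 and 111 ± 35.9 FPKM (1.5), *Acot2* at 5.29 ± 0.27 and 11.2 ± 3.1 FPKM (0.92) and *Acot1*, its cytosolic relative, at 1.77 ± 0.25 and 3.58 ± 0.86 FPKM (0.71). *Foxo1*, a transcription factor active in fasting, was at 3.24 ± 0.06 FPKM in Ctrl and 6.61 ± 0.94 FPKM in LKO muscle (0.84, unadjusted p = 6.9e-05, adjusted p = 0.29 by limma), 1 of 12 transcription factors tested. No gene of the other 4 pathway lists passed.

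In hypothalamus *Angptl4* was again the only member past the unadjusted criterion, against 0.333% of 13828 tested genes (0.166% in each direction), and 0.0217% passed the adjusted criterion, none a member. *Angptl4* was at 2.57, 2.98 and 3.73 FPKM in Ctrl and 6.66, 5.45 and 6.03 FPKM in LKO mice. The LKO libraries were closely grouped and above every Ctrl library (log2 fold change 0.79, SE 0.12, interval 0.51 to 1.07, unadjusted p = 2.8e-04, adjusted p = 0.35 by limma), and of the 4 tested members it alone did not overlap, against 9.7% of all genes tested (4.74% higher, 4.97% lower). *Lpl*, which neurons and glia express at low levels, was at 2.01, 1.02 and 1.13 FPKM in Ctrl and 1.25, 1.31 and 0.98 FPKM in LKO mice (-0.11, interval -0.49 to 0.27). *Cd36* (1.05 to 1.33 FPKM over all 6) and *Lmf1* (10.7 to 12.2 FPKM) overlapped. *Gpihbp1* was listed at 0 in 5 of 6 libraries and at 0.0990 FPKM in LKO replicate 3, and *Angptl8* and *Apoc2* were at most 0.526 and 0.251 FPKM. *Lipg* (0.274 to 0.343 FPKM in Ctrl, 0.206 to 0.270 in LKO) and *Lipc* (0.0364 to 0.0826 and 0 to 0.0206 FPKM) were lower in LKO without overlap, and these 4 and *Gpihbp1* were too low to be tested.

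Endothelial markers summed to 116 to 136 FPKM in Ctrl and 95.1 to 112 FPKM in LKO hypothalami, and blood transcripts to 331 to 952 and 228 to 460 FPKM. Mammary epithelium transcripts summed to 3.245 to 3.557 FPKM in Ctrl and 3.906 to 5.895 FPKM in LKO hypothalami, higher without overlap. No gene of a marker list passed either criterion there. The part of these cells in the value of *Angptl4* was not tested. No gene of the 6 pathway lists passed either criterion in the hypothalamus. Their largest departure of a median from that of all genes (-0.01) was -0.06, in the fatty acid uptake list.

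Whether the LKO effect differed between tissues was tested itself, by the interaction of genotype and tissue in 1 limma fit. It differed, with an adjusted p under 0.05, for 6 of the 9 members, *Cd36*, *Lipg*, *Lpl*, *Lipc*, *Gpihbp1* and *Apoc2*, and for 33.5% of 15849 genes. *Lipc* was at most 0.302 FPKM outside liver and *Lipg* at most 0.0421 FPKM in GM. *Apoc2* and *Gpihbp1* were at most 0.251 and 0.0990 FPKM in hypothalamus. A gene near 0 in both genotypes of a tissue has a difference near 0 there on log2(FPKM + 1). For *Lipc*, and in part for *Lipg*, *Apoc2* and *Gpihbp1*, the interaction therefore reflects where the gene was expressed. The call of *Apoc2* (adjusted p = 0.045) was lost in 6 of 7 other settings and without any 1 liver or hypothalamus library, 4 of the iWAT or 2 of the GM libraries, 18 of 24 in all, and that of *Gpihbp1* was lost with a pseudocount of 0.1 (0.33). *Cd36* and *Lpl* had their largest change in liver, where they were low in Ctrl mice, and *Lipg* and *Gpihbp1* in iWAT. For *Angptl4*, which was above Ctrl in all 4 tissues by 0.78, 0.53, 1.73 and 0.79 in liver, iWAT, GM and hypothalamus, the interaction had an adjusted p of 0.072 (0.013 to 0.22 over all alternatives), and *Lmf1* (0.53) and *Angptl8* (0.69) did not pass either. A p above the threshold does not show that the effects were alike. The labels do not say whether the replicates are separate mice, so that p-values measure the spread between these libraries.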

How the data were processed

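Libraries were made with the TruSeq RNA v2 kit, which does not mark strand, and the tools named in the submitters' processing notes are FastQC 0.11.5, Trimmomatic 0.32, HISAT2 2.0.5, Bowtie2 2.2.6, STAR 2.5.2b and StringTie 1.3.3b, with the mm10 genome. The authors deposited FPKM (fragments per kilobase, scaled to the fragments of a library) in 1 joined table, and per library the coverage, which the authors did not scale for depth, FPKM and TPM, which the authors scaled to 1 sum. The deposited values are not counts, so the counting error of a gene is unknown.

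All 24 libraries were used, grouped by their labels. Tissues were fitted one by one in R 4.3.3 by limma 3.58.1 (lmFit, eBayes with trend) on log2(FPKM + 1), a scale that understates the change of low genes, for genes of at least 1 FPKM in at least 3 of 6 libraries, with Benjamini-Hochberg adjustment. The interaction and the Ctrl contrasts came from 1 fit of 8 group means. The script was tested on simulated data. Alternatives were a pseudocount of 0.1, no filter, TPM, median-ratio scaling, quantile normalization, ordinary variances, a replicate block, 1 fit of all libraries and leaving out each library.

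The 9 genes, the 6 pathway lists and the 10 marker lists were chosen with earlier results of these data known. Named genes were the members, the up to 4 genes of each pathway list and tissue with the largest change among those past the adjusted (liver, hypothalamus) or unadjusted (iWAT, GM) criterion, the 3 genes most like *Lpl*, *Gpihbp1* and *Cd36*, *Gadd45gip1*, and markers beside a result. *Apoc1*, *Apoc3*, *Apoa5*, *Ppara*, *Scarb1* and *Lrp1* in liver were named after their values were seen. Single values of some listed genes are not reported or plotted here. Promoters came from RefSeq on GRCm38.p6 (5 of 9 members matched). Spans and overlaps came from the gene positions that the authors deposited with the per-library values. Tables and plots were made in Python 3.11.15 (pandas 2.3.3, numpy 2.4.6, matplotlib 3.10.9).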

Additional observations from a re-analysis of the deposited data

Results flagged for a closer look

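The LKO effect differed between the 4 tissues, by the limma interaction test over 24 libraries, for 6 members. The adjusted p was 7.4e-08 for *Cd36*, 5.9e-05 for *Lipg*, 2.3e-04 for *Lpl*, 3.2e-04 for *Lipc*, 0.017 for *Gpihbp1* and 0.045 for *Apoc2*, of which the last was lost in 6 of 7 other settings and without any 1 of 18 of the 24 libraries, and that of *Gpihbp1* with a pseudocount of 0.1. *Cd36* differed from Ctrl by 3.19 on the log2 scale in liver, and by 0.47, 0.28 and -0.04 in iWAT, GM and hypothalamus, and all 3 LKO libraries were above all 3 Ctrl libraries in liver, iWAT and GM. *Lpl* differed by 2.09, 0.10, 0.06 and -0.11 in the same order, and its groups overlapped outside the liver. *Lipg* differed by 1.32 in iWAT and 0.36 in liver. *Gpihbp1* differed by 0.83 in iWAT, 0.48 in liver and 0.23 in GM. *Lipc* and *Apoc2* differed by -0.71 and 1.15 in liver, and outside it were too low to be tested alone, except *Apoc2* in iWAT (0.17). A gene near 0 in both genotypes of a tissue has a difference near 0 there on log2(FPKM + 1). For *Lipc*, and in part for *Apoc2*, *Lipg* and *Gpihbp1*, the interaction therefore reflects where the gene was expressed. Groups of 3 libraries are too small for a check of single outlying libraries.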

How the results depend on the processing

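In liver *Lpl*, *Apoc2*, *Cd36* and *Lipc* passed the adjusted criterion under every alternative run (log2 fold changes 1.67 to 2.40, 0.71 to 1.28, 2.78 to 3.49 and -1.15 to -0.59). *Angptl4* lost its liver call without the filter (adjusted p = 0.063), with median-ratio scaling (0.24), quantile normalization (0.073) and ordinary variances (0.12), and *Gpihbp1* gained one with deposited TPM (log2 fold change 0.61) and without LKO replicate 1 (0.59). In liver 87.2% of all called genes were higher, and 50.7% after median-ratio scaling. With all 24 libraries in 1 fit, 2 iWAT members and 1 GM member passed the adjusted criterion in place of 0, and without 1 library 1 to 3 iWAT members passed the unadjusted criterion, or 1 to 2 when *Lipg* is left out. *Gpihbp1* passed each time, *Lipg* could not be tested without any 1 LKO library because only its 3 LKO libraries reached 1 FPKM, and *Angptl4* passed without Ctrl replicate 3 (log2 fold change 0.66) or LKO replicate 2 (0.64). Signs turned for *Angptl8* (-0.093, median-ratio scaling) and *Lipg* (-0.055, quantile normalization) in liver, and on leaving out 1 library for values smaller than their standard error, which ranged from -0.034 to 0.21 for *Lpl*, -0.0036 to 0.072 for *Lmf1* and -0.67 to 0.037 for *Angptl8* in iWAT, from -0.032 to 0.11 for *Lpl* and -0.020 to 0.12 for *Lmf1* in GM, and from -0.22 to 0.067 for *Lpl* in hypothalamus. The causes were not tested. The interaction of *Apoc2* missed the threshold in 6 of 7 other settings (adjusted p from 0.066 to 0.47) and without 1 of 18 of the 24 libraries (0.0034 to 0.12 over all 24), that of *Angptl4* passed it with a pseudocount of 0.1 (0.048), after median-ratio scaling (0.013) and without liver LKO replicate 1 (0.049), GM Ctrl replicate 2 (0.027) or GM LKO replicate 2 (0.046), that of *Gpihbp1* missed it with a pseudocount of 0.1 (0.33), and that of *Lmf1* passed after median-ratio scaling (0.0027) and quantile normalization (0.011). In all, 198 of 208 fold changes in other settings and 140 of 153 on leaving out 1 library kept their sign and their side of the threshold.

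Same-numbered Ctrl and LKO libraries were not treated as pairs, as the labels give them only a shared number. Their deviations from the group means correlated by 0.03 to 0.15 in liver, -0.12 to 0.30 in iWAT, 0.05 to 0.35 in GM and -0.13 to 0.14 in hypothalamus. Not every library correlated best with its own number. With 3 libraries per group these correlations cannot show whether a number marks a shared batch. With the replicate block, 5 liver, 1 GM and 1 hypothalamus members and, *Lipg* left out, 1 iWAT member passed the unadjusted criterion, as without it.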

Other observations

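The ratio of the inhibitor transcript *Angptl4* to the enzyme transcript *Lpl*, both in FPKM, was 7.38, 15.3 and 7.13 in Ctrl livers and 1.71, 4.35 and 5.41 in LKO livers, so that it was lower in every LKO liver. In GM it was 0.0199, 0.0320 and 0.0166 in Ctrl and 0.127, 0.0679 and 0.0675 in LKO muscle, and in hypothalamus 1.28, 2.92 and 3.29 in Ctrl and 5.32, 4.15 and 6.18 in LKO mice, so that it was higher in every LKO library of both. In iWAT it was 0.134, 0.150 and 0.181 in Ctrl and 0.256, 0.171 and 0.205 in LKO, with overlap. These ratios were chosen after the values of both genes were seen and were not tested.

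*Angptl8* was highest in replicate 1 of both genotypes in liver and in iWAT, with 41.5 and 48.0 FPKM in liver and 22.5 and 17.5 FPKM in iWAT, against 15.04 to 24.4 FPKM and 7.37 to 10.9 FPKM in the other libraries of these groups. The same 4 libraries had the largest depth of their groups, 8.09 and 5.54 gigabases in liver and 7.95 and 7.58 gigabases in iWAT. *Dock6*, on the other strand, was at 6.93 and 6.33 FPKM in these livers and 4.72 to 5.25 FPKM in the other livers, and at 6.27 and 8.39 FPKM in these iWAT libraries and 6.16 to 11.5 FPKM in the other iWAT libraries. The labels do not tie the libraries of different tissues to the same mouse.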
